A study of Mus musculus with 8 samples.

Results

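The heterozygous Ptf1a lineage of the fetal mouse hypothalamus was profiled in 4 of the 8 RNA libraries of the study. All 4 came from Ptf1a cre/+; Ai9/+ fetuses of the C57BL/6 strain at embryonic day 14.5. One Ptf1a allele carries Cre recombinase, and Ai9 is a reporter allele that Cre switches on permanently, so red cells had expressed Ptf1a or descended from cells that had. The hypothalamus was dissociated with papain, dead cells were removed by propidium iodide, and red fluorescent cells were sorted into Trizol. Total RNA was copied with a strand-preserving kit for very small inputs and sequenced as short read pairs. Whether 1 fetus or several gave each library is not stated, so the spread between libraries may be partly technical. No second genotype enters the account, which describes levels within these 4 libraries.

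Genes were taken as members when they were annotated as protein coding and reached 1 read per 1000000 exon reads (1 CPM) in each of the 4 libraries. This left 11473 of 21948 protein-coding genes in the table, or 52.3%, among 51826 genes of all kinds. The number of members in each gene list below is to be read beside that share. At the depth of these libraries, 2502387 to 2979647 exon reads, 1 CPM equals 2.50 to 2.98 reads. Zfp367 lay just inside, with 1.01 CPM in library 2, and Ptprh just outside, with 0.799 CPM in library 3. The 11473 genes held 95.1% to 97.3% of all exon reads. Levels are given as transcripts per 1000000 (TPM), which divides reads by exon length and so allows genes to be compared, and errors are SD over the 4 libraries.

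Ptf1a encodes a basic helix-loop-helix factor that joins an E protein and Rbpj in a complex and is known for steering precursors of the cerebellum, the dorsal horn and the retina towards inhibitory neurons. It is expressed briefly in progenitors, while the reporter stays on in their descendants. In the hypothalamus, regional homeodomain factors such as Nkx2-1 set up territories from which neurons making releasing hormones, feeding peptides and fast transmitters arise. A neuron's precursor RNAs keep introns until they are spliced, so reads over introns come largely from unspliced RNA in the nucleus, and also from any genomic DNA in a library.

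The start regions of a few genes are shown for the neuropeptide precursors whose levels are described further on, for a pair of regional factors and for the tubulin Tubb3. RefSeq promoter sequences (GRCm38.p6) matched 8872 members and 7 of the 8 neuropeptide members. The letters TATAA on the gene's strand, from 50 to 15 bases before the start, stood in 1371 of 27025 genes of the RefSeq table (5.07%), in 192 of the 8872 members (2.16%) and in 3 of the 7 neuropeptide members. Each line runs 5′ to 3′ from 60 bases before the start to 10 bases after it, with TATAA in that window in capitals.
Pmch (chr10:88091012-88091081, plus strand): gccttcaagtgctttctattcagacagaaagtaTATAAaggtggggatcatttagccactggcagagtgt
Pomc (chr12:3954885-3954954, plus strand): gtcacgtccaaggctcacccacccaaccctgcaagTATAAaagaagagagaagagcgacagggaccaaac
Npvf (chr6:50654436-50654505, minus strand): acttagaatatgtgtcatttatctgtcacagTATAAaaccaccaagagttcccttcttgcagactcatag
Sst (chr16:23890835-23890904, minus strand): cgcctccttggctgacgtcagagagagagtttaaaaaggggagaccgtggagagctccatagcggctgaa
Npy (chr6:49822650-49822719, plus strand): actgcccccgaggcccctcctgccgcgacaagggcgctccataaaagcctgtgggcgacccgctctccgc
Otp (chr13:94875576-94875645, plus strand): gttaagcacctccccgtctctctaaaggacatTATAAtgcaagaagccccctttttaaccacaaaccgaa
Hmx2 (chr7:131548697-131548766, plus strand): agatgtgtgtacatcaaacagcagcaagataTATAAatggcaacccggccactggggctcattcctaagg
Tubb3 (chr8:123411493-123411562, plus strand): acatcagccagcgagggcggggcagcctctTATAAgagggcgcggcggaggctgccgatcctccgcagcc
The capitals begin 27 bases before the start in Pmch, 25 in Pomc and 29 in Npvf, and Sst and Npy have no such letters in the window. Among regional hypothalamic factors, 5 of 24 matched members held TATAA there, Otp and Hmx2 included, and so did the neuronal tubulin Tubb3. The letters GGGCGG or their reverse complement, within 250 bases before the start, stood in 66.6% of members against 35.4% of the RefSeq table, and in 2 of the 7 neuropeptide members. The median number of CG pairs over the 250 bases before and 50 after the start was 23 in members and 11 in the neuropeptide members. RefSeq lists a second start for Hmx2, which has no TATAA in its window. These are matches of letters, and no binding was measured.

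To describe the label, 11 markers of hypothalamic neurons were read, and all 11 were members, among them Nkx2-1, Isl1, Otp, Six6, Stmn2 and Elavl3. The 11 include general neuronal genes such as Tubb3. Of all protein-coding genes 52.3% were members, and of a longer list of 38 hypothalamic factors 28 were. Lists were chosen with earlier results of these data known, so the count is no open test of the label. Of 5 neural progenitor markers, 4 were members and the Notch target Hes5 was not, with 1, 1, 6 and 5 exon reads in libraries 1 to 4. Ptf1a itself had 1 exon read in the 4 libraries together, in library 3. At 0 reads, libraries 1, 2 and 4 allow up to 1.09, 1.01 and 1.06 CPM (3 reads, counting error only).

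Library 3 stood apart in endothelial genes, and library 4 in the sex-linked genes. Summed over the 12 endothelial genes, libraries 1 to 4 had 11.6, 10.4, 221 and 36.8 CPM, and 4 of the 12 were members. The defining vascular receptor Kdr had 0, 1.34, 52.4 and 4.60 CPM, and Cdh5, the cadherin of endothelial junctions, 0.725, 0, 28.4 and 5.31 CPM. Erythroid genes summed to 3.99, 43.3, 117 and 64.1 CPM, microglial and myeloid genes to 2.18, 3.69, 9.99 and 23.0 CPM, and mesenchymal genes to 13.8, 10.4, 44.8 and 31.2 CPM, with 1 member each. Myeloid genes were highest in library 4 and the other lists in library 3. Astrocyte and tanycyte genes, with 7 of 13 members, summed to 111, 135, 291 and 210 CPM. Of that sum, Slc1a2, which is also in the glutamate list, had 73.6, 91.6, 215 and 137 CPM. The astrocyte markers Gfap, Aqp4 and Aldh1l1 were not members, with 7, 9 and 14 exon reads in all. Oligodendrocyte lineage genes, with 8 of 11 members, were even, at 115, 132, 134 and 134 CPM. None of 13 pituitary genes was a member, and the list summed to 0 to 8.14 CPM. The 4 Y-linked genes summed to 93.5, 99.7, 185 and 0.354 CPM. Xist, the RNA of the inactive X chromosome, had 0, 0, 13 and 3183 exon reads. By these genes library 4 read as female and libraries 1 and 2 as male, so the libraries also differ in sex. The part of the other cell types listed here in the levels of other genes was not tested.

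The median mean TPM was 29.0, with quartiles of 12.1 and 65.9. Only 93 members exceeded 1000 TPM, 1830 exceeded 100 TPM, and 2349 stayed under 10 TPM. The 20 highest genes held 13.2% ± 0.703 of member TPM, and the 100 highest held 26.9% ± 0.929.

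**Figure D1:**
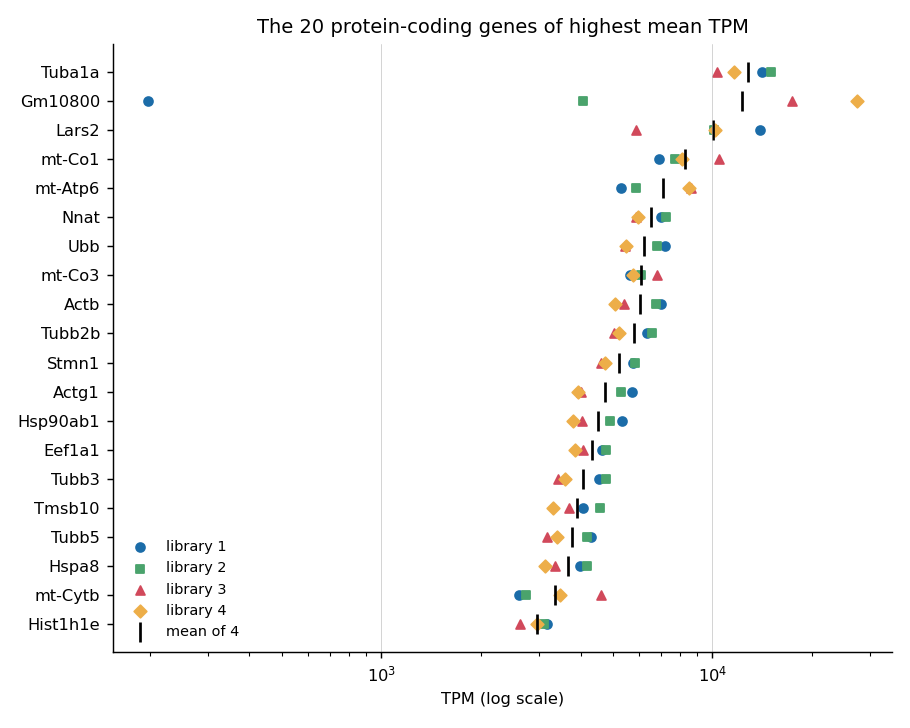
TPM (log scale) of the 20 protein-coding genes of highest mean TPM in each of the 4 heterozygous libraries, with the mean as a short black line. Most genes vary little between libraries, while Gm10800 runs from 198 TPM in library 1 to 27319 TPM in library 4.

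Cytoskeletal genes led the profile. Tuba1a, an alpha-tubulin of newly formed neurons (chromosome 15, 98949841 to 98953551, minus strand), had the highest mean, with 14092, 14982, 10355 and 11639 TPM in libraries 1 to 4. Libraries 1 and 2 were above libraries 3 and 4. The same order of library pairs held for Actb at 6054 ± 957 TPM, Tubb2b at 5794 ± 788 TPM and the microtubule regulator Stmn1 at 5234 ± 651 TPM. The 18 tubulins, actins and monomer-binding proteins were all members, had a median of 1986 TPM and together held 5.38% ± 0.797 of all TPM. Tuba1a exceeded Tubb3 by 1.65 ± 0.0434 on the log2 scale within libraries, a ratio that varied far less than either level. With unique reads alone, Tuba1a had 6707 TPM and Tubb3 947 TPM.

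Cytosolic ribosomal proteins, the building blocks of the ribosome, had 81 of 84 genes as members, a median of 501 TPM, and 5.45% ± 0.445 of TPM. The elongation factor Eef1a1 reached 4327 ± 449 TPM and Eef2 2607 ± 434 TPM. All 19 cytosolic chaperones were members, led by Hsp90ab1 at 4517 ± 727 TPM and Hspa8 at 3652 ± 501 TPM, the latter at 832 TPM with unique reads alone. SR proteins and hnRNPs, which steer splicing, had 24 of 24 members and a median of 211 TPM, with Hnrnpa1 at 1542 ± 135 TPM, or 168 TPM with unique reads alone. The 24 chromatin genes were also all members, at a median of 110 TPM, led by the BAF complex ATPase Smarca4 at 830.0 ± 113 TPM. None of the genes of these lists lay below the filter except 3 ribosomal protein genes.

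All 13 protein-coding genes of the mitochondrial genome were members, with a median of 2744 TPM and 4.19% ± 0.846 of TPM. The cytochrome oxidase subunit mt-Co1 had 6877, 7698, 10484 and 8074 TPM. For mt-Cytb the values were 2606, 2728, 4610 and 3454 TPM. Library 3 was the highest in both genes. Replication-dependent histones, whose mRNAs mostly lack a poly(A) tail, had 57 of 67 genes as members and a median of 124 TPM. Hist1h1e, a linker histone, was the highest of them at 2960 ± 241 TPM.

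Imprinted genes stood high as a list, with 19 of 20 members and a median of 168 TPM. Nnat, a paternally expressed proteolipid of developing neurons, reached 6509 ± 699 TPM and ranked 6 among all members, but had 1100 TPM with unique reads alone. Peg10 followed at 772 ± 133 TPM and Peg3 at 497 ± 55.5 TPM. Ndn, which encodes necdin, had 766, 735, 1659 and 774 TPM, so library 3 stood above the other libraries, which lay close together, and the mean was 983 TPM with library 3 and 758 TPM without it. Only 0.242% of the exon reads of Ndn were counted as unique to it in the deposited tables, and its annotated span overlaps Gm45009.

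Lars2, a mitochondrial leucyl-tRNA synthetase (chromosome 9, 123366927 to 123462666), held 2.94%, 2.24%, 1.25% and 2.19% of all exon reads in libraries 1 to 4, or 10045 ± 3290 TPM. Only 0.0706% of the Lars2 exon reads crossed an exon junction, against 23.1% to 24.4% over all members of a library. Where along the gene these reads lie was not tested, so the level may not be that of spliced Lars2 mRNA. Gm10800, a predicted gene, had 198, 4052, 17406 and 27319 TPM, a mean of 12244 TPM that was 7218 TPM without library 4. Together with 5 other predicted genes (Gm10801, Gm21738, Gm10717, Gm10719 and Gm10721) it summed to 59.5, 1107, 4754 and 7493 CPM. Their order over the libraries was that of reads over olfactory and vomeronasal receptor genes, given with the intron reads, and the part of that background in their level was not tested.

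The deposited tables also count unique reads, a term whose definition is not given in the sources used here. Fewer than 50% of exon reads were counted as unique in 1148 members (10.0%) and in 12 of the 20 highest genes. Of the 1148 genes, 83.3% overlapped another annotated gene, against 51.5% of the remaining 10325. With unique reads alone, 12 of the 20 highest genes stayed among the 20 highest, Tubb3 went from 4078 to 947 TPM and mt-Co3 from 6070 to 42.1 TPM. Whether strand was used in counting is not given, so reads of an antisense partner cannot be told from those of the gene.

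Pan-neuronal genes of the cytoskeleton and RNA binding were high. All 21 were members and all 21 lay above the median of members, with a list median of 396 TPM. Tubb3 led at 4078 ± 679 TPM, then the deubiquitinase Uchl1 at 1711 ± 199 TPM, the stathmin Stmn3 at 1576 ± 357 TPM and the neurofilament protein Ina at 1467 ± 243 TPM. The lowest, named after its value was seen, was Rbfox3, the antigen NeuN of mature neurons, at 32.8 TPM. Tubb3 exceeded the progenitor filament gene Vim by 3.24 ± 0.374 on the log2 scale within libraries, in 4 of 4 libraries. Of the Tubb3 exon reads, 17.5% were counted as unique. Counted so, Tubb3 had 947 TPM, below Uchl1 at 2263 TPM and Stmn3 at 2089 TPM and closer to Vim at 573 TPM. Both the lead of Tubb3 and its ratio to Vim thus depended on which reads were counted.

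Factors of newly formed neurons were also high. Of 20 listed, 19 were members, with a median of 76.0 TPM. Sox11, a SoxC factor that switches on neuronal genes, had 837, 802, 874 and 815 TPM, one of the most even genes of its level. Its relatives Sox4 and Sox12 stood at 645 ± 22.7 and 378 ± 33.1 TPM. Dcx, which bundles microtubules in migrating neurons, was less even, at 151, 136, 256 and 275 TPM.

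Synaptic and guidance genes were broadly present. The synaptic vesicle list had 20 of 20 members at a median of 104 TPM, with the small GTPase Rab3a at 402 ± 38.5 TPM and Syn1 at 183 ± 24.4 TPM. All 34 axon guidance genes were members, at a median of 41.2 TPM, led by the adhesion molecules Ncam1 at 624 ± 28.9 TPM and Plxna1, a semaphorin receptor, at 508 ± 65.1 TPM. Transmitter receptors and voltage-gated channels had 27 of 29 members but a median of only 30.6 TPM, close to the 29.0 TPM of all members.

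Of 38 hypothalamic factors, 28 were members, with a median of 50.7 TPM, and 19 of the 28 lay above the median of members. Nkx2-1, the homeodomain factor of the ventral forebrain and tuberal hypothalamus (chromosome 12, 56531958 to 56536908, minus strand), led with 416, 332, 349 and 356 TPM. Library 1 was the highest and the other libraries lay close together.

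Other factors of the region followed. Fezf1, a zinc finger factor of the ventromedial nucleus and its progenitors, had 209, 266, 192 and 245 TPM, and Sox14 had 239, 236, 181 and 187 TPM. Isl1, a LIM factor of Pomc and other arcuate neurons, had 249, 179, 178 and 201 TPM, with library 1 the highest. Hmx3 had 220, 147, 149 and 156 TPM, again highest in library 1, and Hmx2 averaged 109 ± 22.3 TPM. Only 11.5% of Hmx3 exon reads and 9.88% of Hmx2 exon reads were counted as unique, and both lie inside the annotated span of Fgfr2. Nkx2-1 exceeded Isl1 by 0.86 ± 0.0994 on the log2 scale within libraries, a steady ratio, in 4 of 4.

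Nr5a1, the SF-1 factor that defines the ventromedial nucleus, had 149, 167, 104 and 128 TPM. Arnt2, a partner of Sim1 in neuroendocrine neurons, stood at 165 ± 15.05 TPM, Nkx2-4 at 144 ± 24.5 TPM and Nkx2-2 at 126 ± 13.8 TPM. Otp, which is required for several neuroendocrine cell types, averaged 104 ± 12.1 TPM and carries TATAA in the window printed above. Its usual companion Sim1 was not a member, with 2, 15, 94 and 39 exon reads, highest in library 3. It was below 1 CPM in library 1 only, at 0.725 CPM. Six3 and Six6, factors of the rostral forebrain and eye field, averaged 68.2 ± 8.41 and 33.3 ± 9.93 TPM. Rax, which marks retinal and hypothalamic progenitors and tanycytes, was far lower at 6.26 ± 2.23 TPM.

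**Figure D2:**
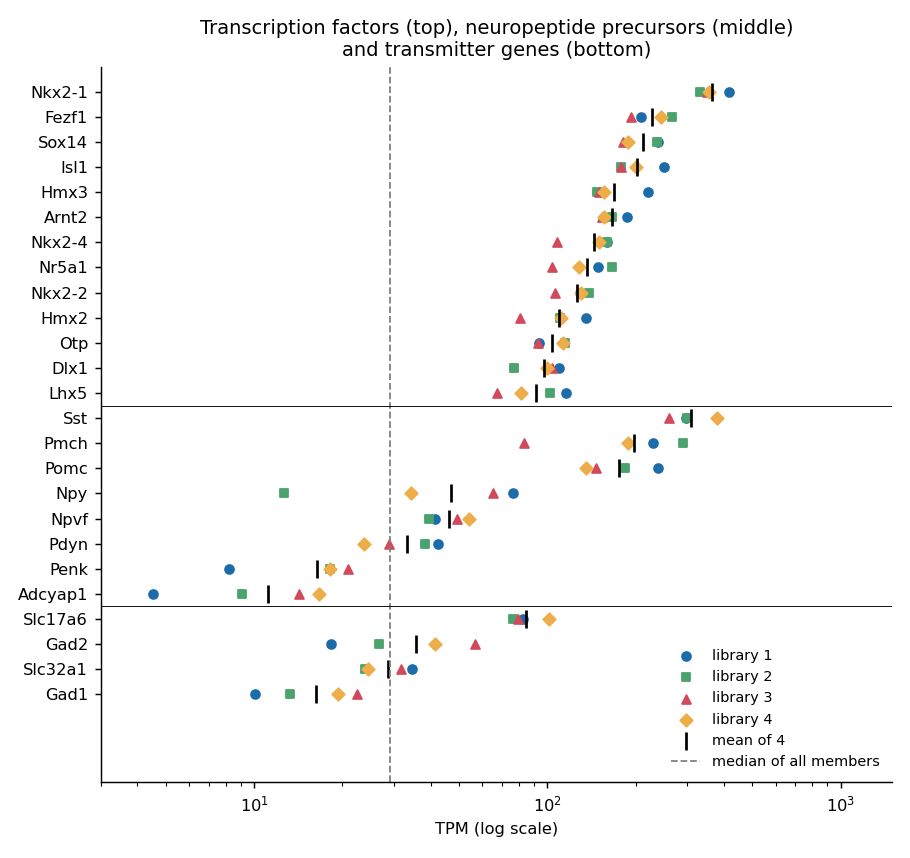
TPM (log scale) of regional factors, transmitter genes and neuropeptides in each of the 4 heterozygous libraries, with the mean as a short black line and the median TPM of members as a dashed line. Nkx2-1, Sst, Pmch and Pomc lie above the line in every library, and Gad1 lies below it in every library.

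Factors of inhibitory neurons had 12 of 16 members and a median of 17.8 TPM. Dlx1 and Dlx2, which direct forebrain GABA neurons, averaged 97.6 ± 14.2 and 72.1 ± 11.3 TPM. Only 11.4% of Dlx1 reads were unique, and the gene overlaps Dlx1as. Lhx5 averaged 91.5 ± 21.6 TPM. Factors of excitatory neurons had 13 of 20 members and a median of 12.3 TPM, led by Fezf1.

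Partners of Ptf1a were present although Ptf1a was not a member. The E proteins Tcf3 and Tcf12 averaged 97.7 ± 8.50 and 32.4 ± 6.09 TPM, and Rbpj 77.8 ± 9.05 TPM, with 35.6% of its exon reads unique. Prdm13, a target of Ptf1a in the spinal cord, had 12.9, 10.0, 15.2 and 15.1 TPM. Skor2, a corepressor found in Purkinje cells, had 27.4, 38.3, 22.2 and 14.8 TPM. In all, 9 of the 16 listed partners and downstream genes were members, near the 52.3% of all protein-coding genes that were members.

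Both excitatory and inhibitory transmitter genes were read in every library. Slc17a6, the vesicular glutamate transporter VGLUT2 (chromosome 7, 51622006 to 51671119, plus strand), had 82.7, 76.5, 79.3 and 101 TPM. Gad2, which makes GABA, had 18.3, 26.7, 56.5 and 41.5 TPM, and Gad1 10.0, 13.2, 22.5 and 19.3 TPM. Both Gad genes were lowest in library 1 and highest in library 3. Slc32a1, the vesicular GABA transporter, did not share that order, with 34.6, 23.8, 31.8 and 24.5 TPM.

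Within libraries, Slc17a6 exceeded Gad2 by 1.37 ± 0.70 on the log2 scale, and in library 3 by 0.49. Its excess over Slc32a1 was 1.58 ± 0.36 and over Gad1 2.44 ± 0.50. All 3 ratios were above 0 in 4 of 4 libraries. A bulk level cannot tell fewer cells of a type from less RNA per cell. The cortical transporter Slc17a7 was not a member, with 2 exon reads in all. The GABA-degrading enzyme Abat averaged 70.8 ± 8.82 TPM.

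Of 31 neuropeptide and hormone precursors, 8 were members, and 6 of these lay above the median of members. Sst, the precursor of somatostatin (chromosome 16, 23889581 to 23890844, minus strand), was the highest, with 296, 298, 260 and 377 TPM. Pmch, the precursor of melanin-concentrating hormone, had 230, 289, 83.1 and 188 TPM. Pomc, the precursor of melanocortins and beta-endorphin, had 238, 184, 146 and 135 TPM. Library 3 was the lowest for Sst and Pmch, and library 4 the lowest for Pomc. Sst exceeded Pmch by 0.77 ± 0.71 and Pomc by 0.83 ± 0.48 on the log2 scale, in 4 of 4 libraries each, while Pomc and Pmch changed places between libraries.

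Npy was the least even of the 8 peptide members, with 76.0, 12.6, 65.4 and 34.2 TPM. Npvf, whose products inhibit gonadotropin release, averaged 46.1 ± 6.77 TPM. The opioid precursors Pdyn and Penk averaged 33.3 ± 8.58 and 16.4 ± 5.56 TPM, and Adcyap1, the precursor of PACAP, 11.1 ± 5.42 TPM. Penk had no sequence in the promoter table.

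Other peptides of the tuberal hypothalamus had few reads. In libraries 1 to 4, Agrp had 0, 6, 3 and 3 exon reads and Ghrh 0, 2, 2 and 8. Kiss1 had 1, 5, 2 and 1 reads, Tac2 0, 0, 0 and 1, and Cartpt 0, 5, 4 and 10. Oxt had no read in any library. Of the 31 listed precursors, 16, 9, 9 and 2 had no exon read in libraries 1 to 4. Since 3 reads equal 1.01 to 1.20 CPM, low expression of these genes was not resolvable at this depth.

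Monoamine genes had 3 of 13 members. Th, the rate-limiting enzyme of dopamine synthesis, had 41.5, 26.7, 25.7 and 31.1 TPM, the vesicular transporter Slc18a2 12.9 ± 6.47 TPM, and Ddc 4.06 ± 2.01 TPM. Hormone receptors had 9 of 18 members, near the 52.3% of all protein-coding genes, and a median of only 2.68 TPM. The list ran from Thra, a thyroid hormone receptor, at 711 ± 97.8 TPM to the estrogen receptor Esr1 at 0.858 ± 0.388 TPM. The progesterone receptor Pgr averaged 2.68 ± 0.808 TPM.

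Progenitor genes were uneven as a list, with 12 of 19 members and a median of 55.3 TPM. Vim averaged 432 ± 74.1 TPM, the RNA-binding protein Msi1 171 ± 12.0 TPM, Sox2 377 ± 31.3 TPM and Sox1 268 ± 24.9 TPM. Under 1% of the exon reads of Sox2 (0.256%) and Sox1 (0.406%) were unique, and Sox2 lies within Sox2ot. Cell cycle genes had 20 of 28 members, a median of 9.62 TPM and 3 genes above the median of members. The proliferation antigen Mki67 had 2.54, 7.38, 91.1 and 35.8 CPM, and Ccnd2, a G1 cyclin, 18.6, 16.3, 53.9 and 18.8 TPM, both highest in library 3. Without library 3, the mean of Mki67 went from 12.5 to 5.50 TPM and that of Ccnd2 from 26.9 to 17.9 TPM.

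Genes of neighbouring regions were partly present. Telencephalic markers had 8 of 12 members, with Bcl11b at 52.2 ± 7.80 TPM, Eomes at 45.4 ± 3.65 TPM and Tbr1 at 4.87 ± 4.81 TPM, or 2.54 TPM without library 3. Their summed level was even, from 391 to 454 CPM. Thalamic and prethalamic markers had 8 of 11 members and summed to 267, 277, 788 and 420 CPM, so library 3 was the highest. Tcf7l2, a Wnt effector of the thalamus, had 36.3, 56.1, 162 and 81.8 TPM, with a mean of 83.9 TPM that was 58.1 TPM without library 3. The retina list had 1 member of 14, Rax. The part of neighbouring tissue in these levels was not tested.

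**Figure D3:**
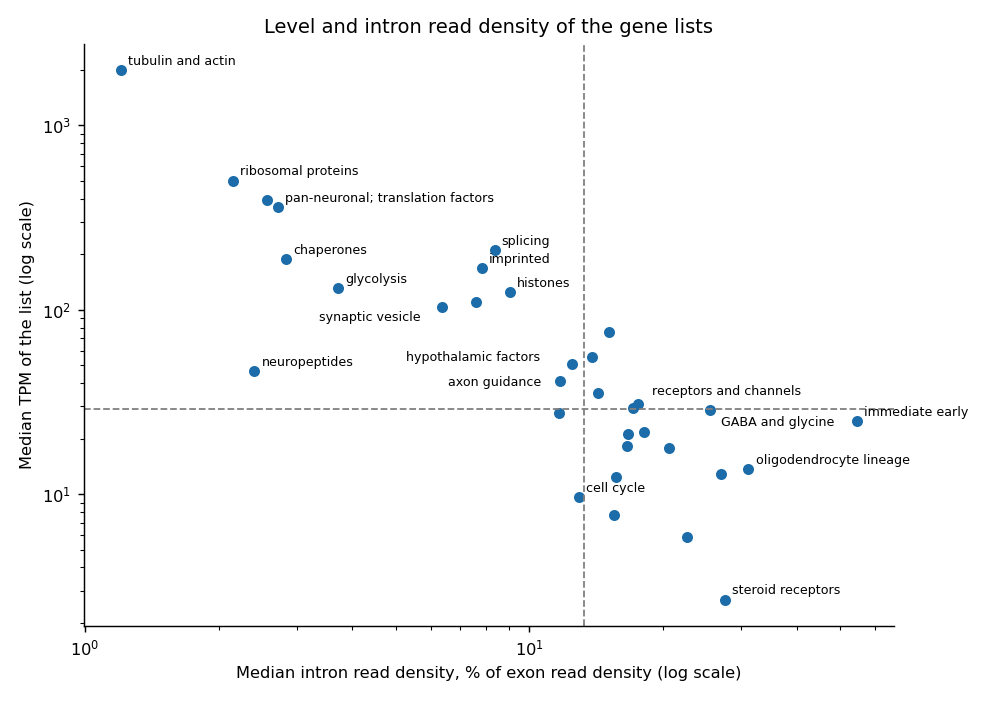
Median TPM (y axis, log scale) against median intron read density as a percent of exon read density (x axis, log scale) of gene lists with at least 3 members, with dashed lines at the medians of all members. Each dot is 1 list. Tubulins and actins lie at high TPM and low intron density, hormone (steroid) receptors at low TPM and high density, and neuropeptides at low density with a TPM near that of regional factors.

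Intron reads made up a large part of each library. Over all members together, introns took 53.6%, 52.8%, 64.2% and 60.2% of gene reads in libraries 1 to 4. The median share per gene was 29.5%, 33.0%, 44.0% and 43.0%, so libraries 3 and 4 lay above libraries 1 and 2 in both measures. Averaged over libraries, the median gene had 37.5%, with 3995 members above 50%, 261 above 90% and 912 below 5%. The deposited intron counts were not confined to genes with introns, and 386 members have no annotated intron length. With an intron length of 0, Hist1h1e had a share of 7.62% and mt-Co1 of 3.32%. A share of a few percent thus need not come from annotated introns. Reads per kilobase over 1442 olfactory and vomeronasal receptor genes, which are not known to be active in hypothalamic neurons, were 0.0198, 0.0746, 0.294 and 0.565. A read density of that size over all member introns would equal 0.449%, 1.63%, 4.84% and 9.74% of their intron reads. Its part in the differences between libraries was not tested.

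Long introns went with high intron shares. With members in 5 equal classes by intron length, the median share from the shortest to the longest was 11.1%, 26.2%, 38.8%, 50.7% and 71.4%. Per base the picture was flat, since intron density was 14.5%, 13.1%, 12.9%, 13.0% and 13.3% of exon density in the same classes. By level it was not flat: from the lowest to the highest of 5 classes by TPM, the density was 28.0%, 18.9%, 13.7%, 9.31% and 5.01%. TPM enters that ratio through the exon reads, so the 2 are not independent. Across 11087 genes, which share libraries and are not independent replicates, Spearman's rho was 0.78 between intron share and intron length.

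**Figure D4:**
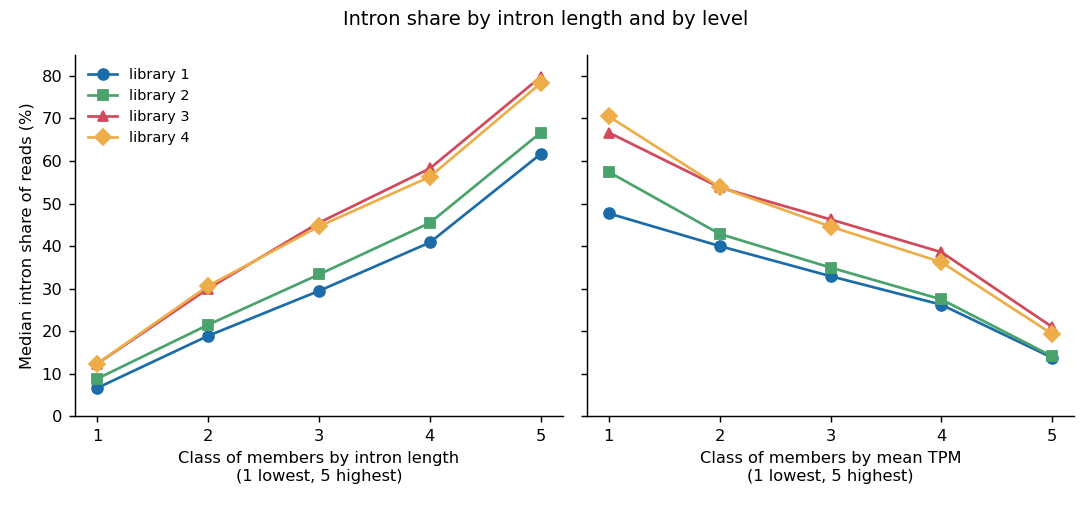
Median intron share (percent of gene reads) of members in 5 equal classes by intron length (left) and by TPM (right), one line per heterozygous library. Libraries 3 and 4 lie above libraries 1 and 2 in every class, and the share climbs with intron length and declines with TPM.

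Gene lists spanned a wide range of intron density around the member median of 13.3%. Tubulins and actins had a median of 1.20%, ribosomal proteins 2.15%, neuropeptides 2.41% and pan-neuronal genes 2.57%. Above that median stood GABA and glycine genes at 25.5%, monoamine genes at 27.0%, hormone receptors at 27.6%, the oligodendrocyte lineage at 31.1% and immediate-early and stress genes at 54.7% (9 genes). Regional hypothalamic factors, at 12.5%, lay close to the median of members. The level of a list bears on this setting. Classes of members with a median of 5.56, 14.6 and 29.0 TPM had densities of 28.0%, 18.9% and 13.7%. The list median was 2.68 TPM for hormone receptors, 12.9 TPM for monoamine genes and 28.7 TPM for GABA and glycine genes. Hormone receptors were thus near the lowest class in density.

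Single genes of the same role differed as much. The intron density was 0.466% for Npy, 1.46% for Pmch, 2.05% for Pomc and 3.53% for Sst, but 67.5% for Adcyap1. Some of these rest on very few reads. Over libraries 1 to 4, Npy had 0, 0, 3 and 1 intron reads and Pmch 3, 1, 0 and 1. Adcyap1 had 7, 16, 20 and 27 exon reads, so these densities are rough. Gad1 had 39.4% and Gad2 25.5%, against 17.8% for Slc17a6 and 17.5% for Slc32a1. Nkx2-1 had 27.1% and Isl1 15.9%. Thus the peptide genes of highest level had densities under 4%, while the Gad genes had more intron reads per base relative to exons than the median member.

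The highest intron shares belonged to a few genes with very many intron reads. Zc3h7a, a zinc finger protein (chromosome 16, 11136592 to 11176393, minus strand), had 1182779, 1158874, 888497 and 1012594 intron reads but only 89, 93, 174 and 142 exon reads. Peak1, Gphn and Cmss1 came next, and the 4 genes together held 52.4%, 46.7%, 24.3% and 32.3% of all member intron reads. Without them the pooled intron share was 35.4%, 37.3%, 57.6% and 50.6%. Of the Zc3h7a intron reads 40.4% were counted as unique, of the Gphn reads 96.0%, and of the Cmss1 reads 0.161%, the last overlapping Filip1l. The lowest share above 0, 0.03%, belonged to Sox4, whose annotated intron length is 0, as it is for the other 9 genes of lowest share.

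The 4 libraries gave similar levels for most members, but they differed in 2 other measures. Genes of any kind with an exon read numbered 14617, 17402, 20077 and 22886 in libraries 1 to 4. A member's deviation from its mean log2(CPM + 1) was also fitted on transcript GC content. The slope was 0.124, 0.167, -0.154 and -0.137 per 10 points of GC, so libraries 1 and 2 differed in sign from libraries 3 and 4. Pearson's r of log2(CPM + 1) across members, as a description, ran from 0.926 for libraries 1 and 3 to 0.964 for libraries 3 and 4. The coefficient of variation (CV, the SD over the mean) of CPM had a median of 20.8%. Counting error alone would give a median of 10.4%. The 2 do not subtract directly: with the squared counting error taken from the squared CV, the median was 16.9%. From the lowest class of 1 to 5 CPM to the class of 100 to 1000 CPM the median CV went from 46.0% to 12.6%, and it was 14.3% in the 71 genes above 1000 CPM. The biological coefficient of variation estimated by edgeR was 24.3%. It is 1 common value for all members and not a median over genes.

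**Figure D5:**
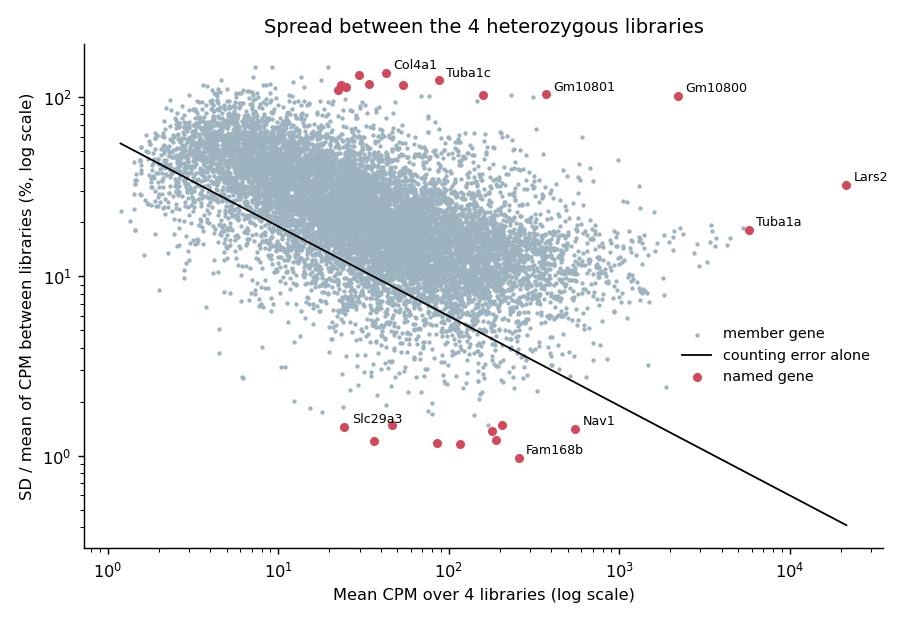
CV of CPM between the 4 heterozygous libraries (percent) against mean CPM (log scale), on a log scale, one dot per member, with the counting error as a line and named genes in red. Most genes lie above the line, and the named genes of widest spread, such as Col4a1 at 136%, lie far above it.

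Single libraries stood away from the rest at some genes. Of 7450 members at a mean of 20 CPM or more, 45 lay at least 2-fold above every other library in library 3, against 6 in library 1 and 0 in libraries 2 and 4. In the other direction, 53 lay at least 2-fold below every other library in library 1, 12 in library 2, 6 in library 3 and 0 in library 4. Col4a1, a basement membrane collagen of vessels, had 13.4, 13.1, 131 and 14.5 CPM, and Lrp4 had 9.43, 10.4, 88.7 and 9.92 CPM. Slc2a1, a glucose transporter of the blood-brain barrier, had 4.35, 13.8, 63.9 and 11.3 CPM. Without library 3, the mean of Col4a1 went from 22.8 to 7.16 TPM, that of Lrp4 from 10.4 to 3.43 TPM and that of Slc2a1 from 24.5 to 10.1 TPM. These 3 genes were highest in library 3. The 45 genes, 0.604% of the 7450, included 3 of the progenitor list and 3 of the cell cycle list. They also included 2 each of the thalamic list, the proneural and Notch list and the list of newly formed neurons. The axon guidance, hypothalamic factor and imprinted lists had 1 each. A gene can be in more than 1 list, and the share of each list was not computed. The 4 endothelial members averaged under 20 CPM and so were not among the 7450. Tuba1c, an alpha-tubulin of dividing cells, had 251, 55.0, 22.4 and 24.1 CPM and was highest in library 1 instead, with a mean of 164 TPM that was 61.7 TPM without that library. At the other extreme Fam168b had 257, 256, 255 and 261 CPM, a CV of 0.975%, which is below the 3.75% of counting error.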

How the data were processed

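Total RNA of sorted cells was measured in 4 heterozygous libraries, grouped by their titles. Per the file headers, the deposited tables hold for each gene exon, intron and gene read counts, unique and junction counts among them, RPKM and TPM. The builds GRCm38 and mm10 are named in the submitters' processing notes, while aligner, counting software and strand use were not given in the sources used here. From the deposited exon counts CPM was computed per library, while TPM was used as the authors deposited it. The deposited RPKM served as an alternative scale. Intron share is intron counts over gene counts, and intron density the intron reads per base over the exon reads per base, for genes with at least 200 intron bases. Means, SD and CV are over 4 libraries, with pandas 2.3.3 and numpy 2.4.6. edgeR 4.0.16 (R 4.3.3) estimated the dispersion with no contrast, and no group test was made. The computations were tested on simulated data.

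Depth was 2502387 to 2979647 exon reads, and floors of 3 reads cover counting error only. Named genes were the 20 highest by TPM, up to 4 members of each list (8 for factors and peptides), the 10 extremes of intron share (at least 100 gene reads per library) and of CV (mean CPM of at least 20), and genes and markers fixed by name. The members and lists were chosen with earlier results of these data known. Alternatives were unique reads, RPKM, TMM, other filters, a GC trend and leaving out each library. Promoter sequences are from RefSeq (GRCm38.p6). Some named genes are not reported here.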

Additional observations from a re-analysis of the deposited data

Results flagged for a closer look

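Libraries were compared within the group of 4 by the gap of the highest or lowest value to its nearest neighbour, divided by the range, with Dixon's 95% critical value as the threshold. Chance passes about 1 group in 20, and 13 of 206 genes (6.31%), 4 of 41 lists and 0 of 25 library measures passed. Of the 206 genes, 20 had been named for a wide or narrow CV between these libraries, so the share of genes cannot be set against chance: 5 of those 20 passed, and 8 of the other 186. Of the 13 genes, 10 were high in library 3.

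The endothelial list summed to 221 CPM in library 3, where the next library had 36.8 CPM. Of its genes, Pecam1 had 19.9 TPM, Esam 18.6 TPM and Egfl7, a protein secreted by endothelial cells, 15.5 TPM in library 3, against at most 3.29, 4.50 and 3.28 TPM elsewhere. Col4a1 at 69.8 TPM, Slc2a1 at 67.6 TPM and Lrp4 at 31.3 TPM were high in the same library, as were Alas2, the first enzyme of erythroid heme synthesis, at 21.0 TPM, Ccnd2 at 53.9 TPM, Barhl2 at 17.9 TPM and Ndn at 1659 TPM. Only 15.9% of Alas2 exon reads were counted as unique, and its annotated span overlaps Apex2. With unique reads alone, the mean of Alas2 went from 9.85 to 2.12 TPM. Library 3 also had the highest thalamic sum, 788 CPM. The part of other cells in these values was not tested.

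In library 1, Hmx3 was high at 220 TPM and Tuba1c at 470.0 TPM, and the oligodendrocyte list was low at 115 CPM, where the other libraries had 132 to 134 CPM. In library 2, the list of inhibitory factors was low at 331 CPM against 389 to 399 CPM, the list of hypothalamic factors at 2117 CPM against 2258 to 2280 CPM, and Fam168b at 174 TPM against 181 to 183 TPM. In CPM, library 2 was not the lowest for Fam168b, and the CV of that gene lay below counting error.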

How the results depend on the processing

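No paired analysis was possible because all 4 libraries belong to 1 group, and no test between groups was made. The number of members was 11473, 9545 at 5 CPM, 10932 with unique reads and 11537 to 12211 when 1 library was left out, but 19337 with no filter beyond 1 read. The median CV, 20.8%, was 22.0% with unique reads, 18.1% at 5 CPM, 42.5% with no filter and 18.6% to 21.1% without 1 library. It was 20.9% with TMM scaling and 20.6% with the trend on GC content removed. The pooled intron share, 57.7%, was 45.3% without Zc3h7a, Peak1, Gphn and Cmss1, an alternative chosen after seeing the data, and 55.5% to 59.3% without 1 library. Subtracting the read density of receptor genes, also added after seeing the data, gave 56.8%. The median share per gene, 37.5%, was 49.0% with no filter, 35.3% after that subtraction and 35.2% to 40.0% without 1 library. The 20 highest genes held 13.2% of member TPM, 12.8% to 13.5% without 1 library, and 8.73% when CPM replaced TPM. Of 238 named genes, 142 moved by more than the SD between libraries with unique reads. Of 39 lists with members, 20 had a median above that of members, 19 to 21 without 1 library and 27 with no filter. At 2502387 to 2979647 exon reads, genes near 1 CPM rest on about 3 reads. Over the whole class of 1 to 5 CPM the median counting error was 32.0%, and it is larger at the lower end.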
